A study of Mus musculus with 12 samples.

Results

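CA1 was compared with the dentate gyrus (DG) in formalin-fixed paraffin sections of the mouse hippocampus, both profiled by photo-isolation chemistry (PIC). In PIC a photo-caged primer starts reverse transcription in the whole section, and only cDNA from the area that is irradiated goes on into the sequencing library. The comparison used the 8 replicate columns named for these sections and regions, 4 for CA1 and 4 for DG, out of 48 replicate columns in the series. Both regions came from male ICR mice (Slc:ICR) of 8 weeks. The labels name no mutant, transgene or drug. The tissue of both groups had been fixed with 4% PFA, embedded in paraffin and permeabilized with TE at 70 °C for 1 h. The other sections of the series, used here only for reference, were PFA-fixed frozen sections with TE and fresh-frozen sections with TE or with 0.1 N HCl for 5 min. Each region and condition was sequenced as 1 of 12 libraries, in which 4 replicates were told apart by barcodes, so that the region and its library cannot be told apart. The study calls the 4 replicates of a region biological replicates, and the sources used here do not say which mouse gave which. The p-values of edgeR, the test of single genes, rest on a spread between these replicates that is estimated over many genes together. They do not show how far the replicates of a single gene scatter.

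CA1 and DG are neighbouring fields of the hippocampus with different principal neurons. Pyramidal cells fill the cell layer of CA1 and send its main output. DG is packed with small granule cells, whose mossy fibre axons run through the hilus to CA3, and it continues to produce neurons in adult life. An irradiated area also holds glia, interneurons, vessels and the dendrites and axons that cross it. Fewer cells of a type and less RNA per cell cannot be told apart in such samples. Dkk3, a secreted protein of the Dickkopf family expressed by hippocampal pyramidal neurons, and Prox1, the homeobox transcription factor that specifies and maintains granule cells, served as markers.

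CA1 was sampled at lower depth than DG. Its replicates held 46852, 55561, 70791 and 35932 unique molecular identifiers (UMIs, each standing for 1 counted molecule), against 147509, 112473, 223055 and 64265 in DG. The mean was 52284 ± 14721 in CA1 and 136826 ± 66852 in DG (SD, n = 4 each), a ratio of 2.62 with overlapping ranges (two-sided exact permutation test, p = 0.0571). A single UMI was therefore worth 14.1 to 27.8 CPM (the share of a replicate's UMIs, scaled to 1000000) in CA1 and 4.48 to 15.6 CPM in DG. At least 1 UMI was found for 9425.5 ± 943 genes in CA1 and 12147.5 ± 1941 in DG. After all 8 replicates had been thinned at random to 35932 UMIs, the numbers were 8238 ± 470 and 8059 ± 319 (ratio of DG to CA1 0.978, exact permutation test, p = 0.686).

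Of 8969 genes with at least 10 UMIs over the 8 replicates, 295 (3.29%) were called at an adjusted p under 0.05 with edgeR. The genes higher in CA1 numbered 78 (0.87% of those tested) and those higher in DG 217 (2.42%). Fold changes are given on the log2 scale with CA1 over DG, so that a negative value means a higher level in DG. They ranged from 0.80 to 9.46 for the first group and from -5.80 to -0.80 for the second, and the median of all tested genes was -0.18. In 238 of the 295 the CPM of the 4 CA1 and the 4 DG replicates did not overlap, which was so for 8.73% of all tested genes. Among the called genes 270 were protein coding, a count for which the share over all tested genes is not given here. Of the 295, 17 had 0 UMIs in CA1 and 2 had 0 in DG. Over all tested genes these numbers were 118 and 2, as a gene could pass the filter through the more deeply counted DG alone.

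The split between the regions depended on depth and scaling. DG took 73.6% of the calls as fitted, but 58.6% once the DG replicates had been thinned to the totals of CA1 (72 higher in CA1, 102 higher in DG) and 52.5% with all replicates at the smallest total (58 and 64). DESeq2 called 101 genes, of which 44.6% were higher in DG, and it gave 5740 of the 8969 genes no adjusted p. With the size factors of DESeq2 in edgeR the share was 59.7%, with a filter that requires a minimum count in each of several replicates it was 50.7%, and without any filter 81.3%. Over 10 random thinnings of DG, 61 to 78 genes were higher in CA1 and 77 to 104 higher in DG. A core of 73 genes was called as fitted and in all 10 thinnings, 40 toward CA1 and 33 toward DG. The total number of calls was 195 without DG replicate 2. The number higher in DG was 139 without CA1 replicate 1, 136 without CA1 replicate 2, 141 without CA1 replicate 4, 139 without DG replicate 2 and 141 without DG replicate 3.

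**Figure D1:**
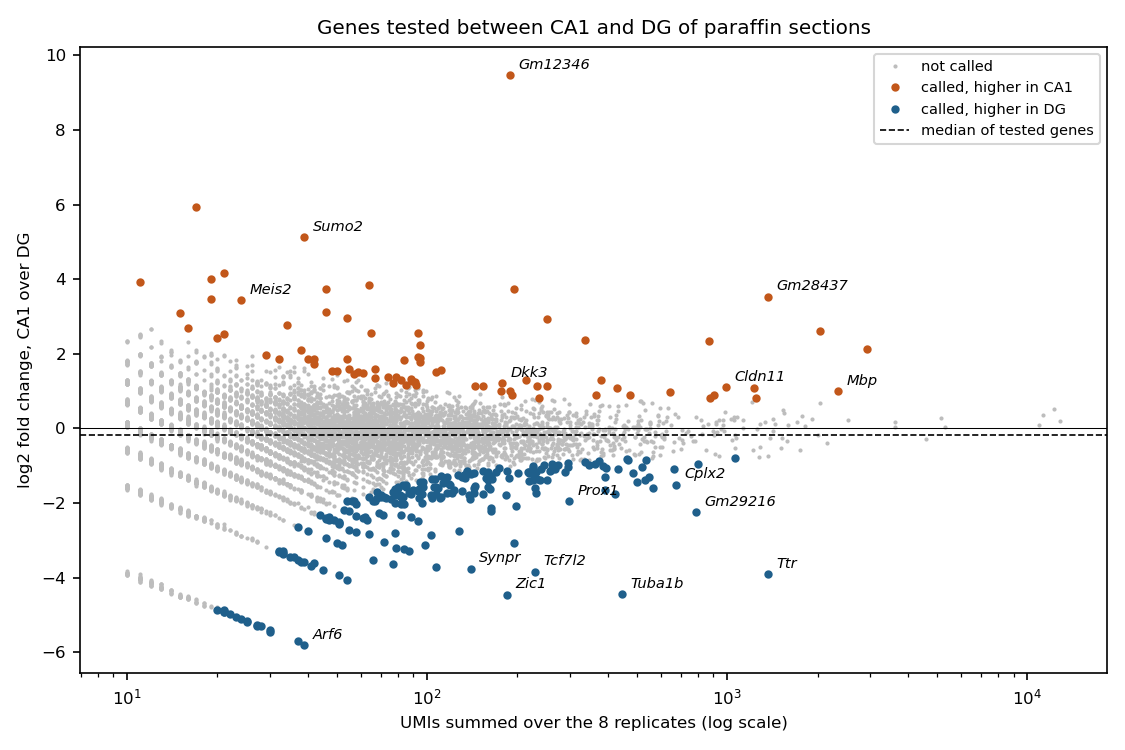
Log2 fold change of CA1 over DG against UMIs summed over the 8 paraffin replicates (log scale) for the 8969 tested genes, with the 78 genes called higher in CA1 and the 217 called higher in DG in colour. At low counts only large differences were called, and the called genes of DG outnumbered those of CA1.

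**Figure D2:**
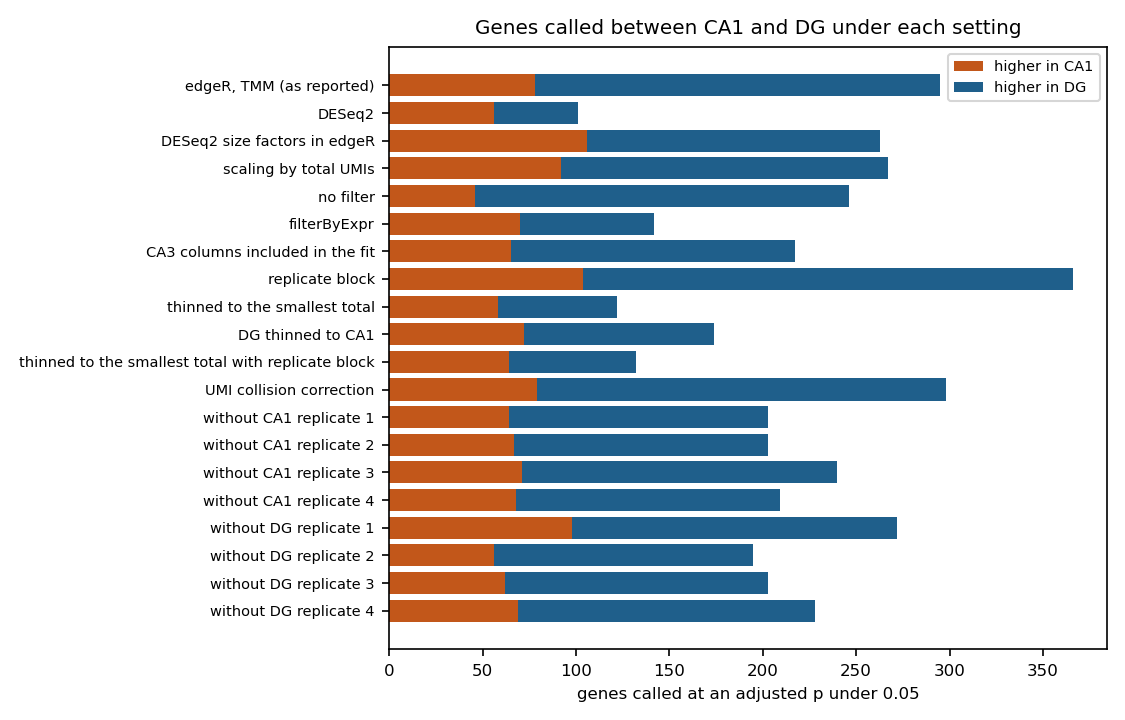
Number of genes called higher in CA1 and higher in DG under the fit as reported, the alternatives and the omission of each replicate. The DG bars shorten from 217 to between 45 and 102 with DESeq2, filterByExpr or thinning, whereas the CA1 bars lie between 46 and 106 throughout.

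Both marker genes separated the regions in the direction of their known cell types. Dkk3 (chr7:112116017-112159057, minus strand, GRCm38) stood at 213, 432, 311 and 779 CPM in CA1 replicates 1 to 4 and at 142, 178, 184 and 187 CPM in DG. All 4 CA1 replicates were above all 4 DG replicates, although the lowest of CA1 was close to the highest of DG. The mean was 434 ± 247 CPM in CA1 and 173 ± 20.5 CPM in DG (SD, n = 4), with a log2 fold change of 1.21 ± 0.28 (SE, edgeR adjusted p = 0.00151). Without CA1 replicate 4, the highest, the adjusted p was 0.0965. Prox1 (chr1:190118035-190170714, minus strand) measured 85.4, 144, 98.9 and 223 CPM in CA1 and 400, 347, 587 and 654 CPM in DG. Every DG replicate was higher than every CA1 replicate, and CA1 was not empty of the gene. Its log2 fold change was -1.94 ± 0.31 (SE, edgeR adjusted p = 1.35e-07), and the call was kept when any replicate was left out.

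**Figure D3:**
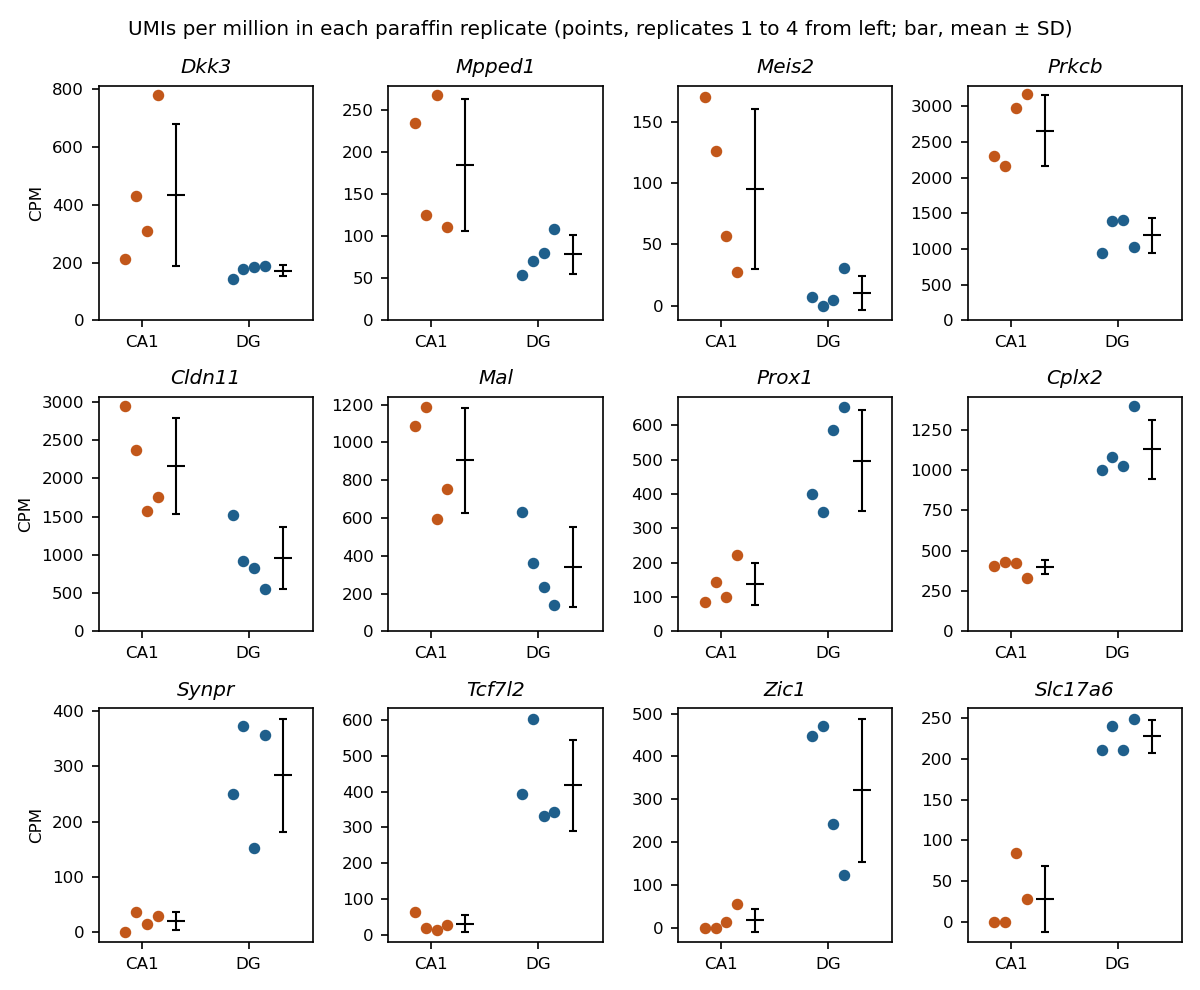
CPM of selected genes in each of the 4 CA1 and 4 DG paraffin replicates (points) with the mean and SD (bars). Dkk3 is higher in the 4 CA1 replicates and Prox1 in the 4 DG replicates.

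CA1 pyramidal markers were few and thinly counted. Of 7 such genes 6 could be tested, 2 were higher in CA1 (0.87% of all tested genes were) and none in DG, and the median log2 fold change was 1.23, beside -0.18 for all tested genes. Pou3f1, a POU-domain transcription factor, measured 192, 144, 268 and 195 CPM in CA1 and 81.4, 88.9, 103 and 62.2 CPM in DG, without overlap (log2 fold change 1.16 ± 0.36, edgeR adjusted p = 0.0408). Mpped1, a predicted metallophosphoesterase, reached 1.31 ± 0.37 (adjusted p = 0.0203), from 185 ± 78.2 CPM in CA1 and 78.7 ± 22.9 CPM in DG. Both calls rest on 41 to 49 UMIs a region, and both were lost with all replicates at the smallest total, with DESeq2, or without CA1 replicate 3 (adjusted p = 0.239 and 0.211). The call of Mpped1 was also lost without CA1 replicate 1 (0.0927), and that of Pou3f1 without CA1 replicate 1 or 4 or DG replicate 1, 2 or 4 (0.0523 to 0.0762). Wfs1, which encodes wolframin of the endoplasmic reticulum and is widely used to mark CA1, had 1, 0, 3 and 5 UMIs in CA1 and 4, 5, 7 and 0 in DG. The 2 regions overlapped, the log2 fold change was 0.53 ± 0.69 (adjusted p = 0.821), and it turned to -0.31 without CA1 replicate 4, so that at this depth no difference was detectable. Ccn3 and Man1a, with values of 1.84 and -0.70, did not pass the test either.

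Among 4 genes that mark pyramidal cells of CA1 and CA3 together, Dkk3 was the only one called of 3 tested. Over all tested genes 0.87% were higher in CA1. Ociad2 measured 240 ± 111 CPM in CA1 and 146 ± 41.9 CPM in DG with overlapping replicates (0.66 ± 0.31, edgeR adjusted p = 0.284). Neurod6, a bHLH transcription factor of pyramidal neurons, had a value of 0.16 (adjusted p = 0.9).

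The granule cell markers that passed the test were higher in DG. Of 15 members 14 were tested, 3 were called higher in DG (Prox1, Pdzd2 and Rfx3), beside 2.42% of all tested genes, and none higher in CA1, with a median of -1.66 and, for the 12 with a UMI in CA1, -1.42. Their summed level was 636 to 751 CPM in CA1 and 1261 to 2101 CPM in DG, without overlap. Pdzd2, a protein with several PDZ domains, had 2 UMIs in each CA1 replicate and 19, 10, 33 and 11 in the DG replicates. This corresponds to 40.6 ± 11.6 CPM in CA1 and 134 ± 34.8 CPM in DG (-1.79 ± 0.50, edgeR adjusted p = 0.0177). The call was lost without CA1 replicate 2 or 3 or DG replicate 3 or 4 (0.0563 to 0.102). Rfx3, a transcription factor of ciliogenesis, measured 149, 72, 98.9 and 195 CPM in CA1 and 203, 240, 363 and 389 CPM in DG (-1.31 ± 0.33, adjusted p = 0.00607, and 0.0526 to 0.0792 without CA1 replicate 2 or 3 or DG replicate 3). C1ql2, a synaptic C1q-like protein of mossy fibres, missed the threshold with 5 UMIs in CA1 and 51 in DG (-1.86, adjusted p = 0.071). Tdo2 and Plk5 had no UMI in CA1 and 12 and 17 in DG, and neither passed the test. With DESeq2, with thinning of DG, or without CA1 replicate 2 or DG replicate 3, 1 of the 14 was called.

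Markers of other cells near the granule layer gave fewer calls, to be read beside the 2.42% of all tested genes called higher in DG. Of 4 tested markers of hilar mossy cells, the excitatory neurons beneath the granule cells, only Calb2 was called. This gene, which encodes the calcium-binding protein calretinin, had 0, 0, 0 and 1 UMIs in CA1 and 61, 124, 108 and 46.7 CPM in DG (-3.93 ± 0.87, edgeR adjusted p = 0.000834). Of 10 tested genes of adult neurogenesis 1 was higher in DG, the bHLH factor Neurod1, at 43.5 ± 18.3 CPM in CA1 and 136 ± 47.2 CPM in DG (-1.61 ± 0.49, adjusted p = 0.0376). This call was kept in only 2 of the 8 fits without 1 replicate and reached 0.191 without DG replicate 2. It was lost too without CA1 replicate 2, 3 or 4 or DG replicate 1 or 4. Dcx and Sox11, which mark immature neurons, had values of -1.14 and -1.47 with adjusted p of 0.33 and 0.061. The summed level of this list was 283 to 594 CPM in CA1 and 716 to 942 CPM in DG. The DG library also held more of Cpne4, a copine listed here for CA3 (-1.86 ± 0.53, adjusted p = 0.0199), and of Pcp4, a calmodulin regulator listed for CA2 (-1.60 ± 0.27, adjusted p = 6.75e-07). Cpne4 was the only gene called of 5 tested CA3 markers, of which 2 had positive values (list median -0.84). Pcp4 was the only one called of 3 tested CA2 markers, of which 1 had a positive value (list median -1.21). Cpne4 was lost without CA1 replicate 3 (0.234) or DG replicate 1 or 2 (0.0974 and 0.072). Pcp4 measured 128, 342, 438 and 250 CPM in CA1 and 929, 1120, 919 and 545 CPM in DG, and was called in all 8 fits without 1 replicate.

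**Figure D4:**
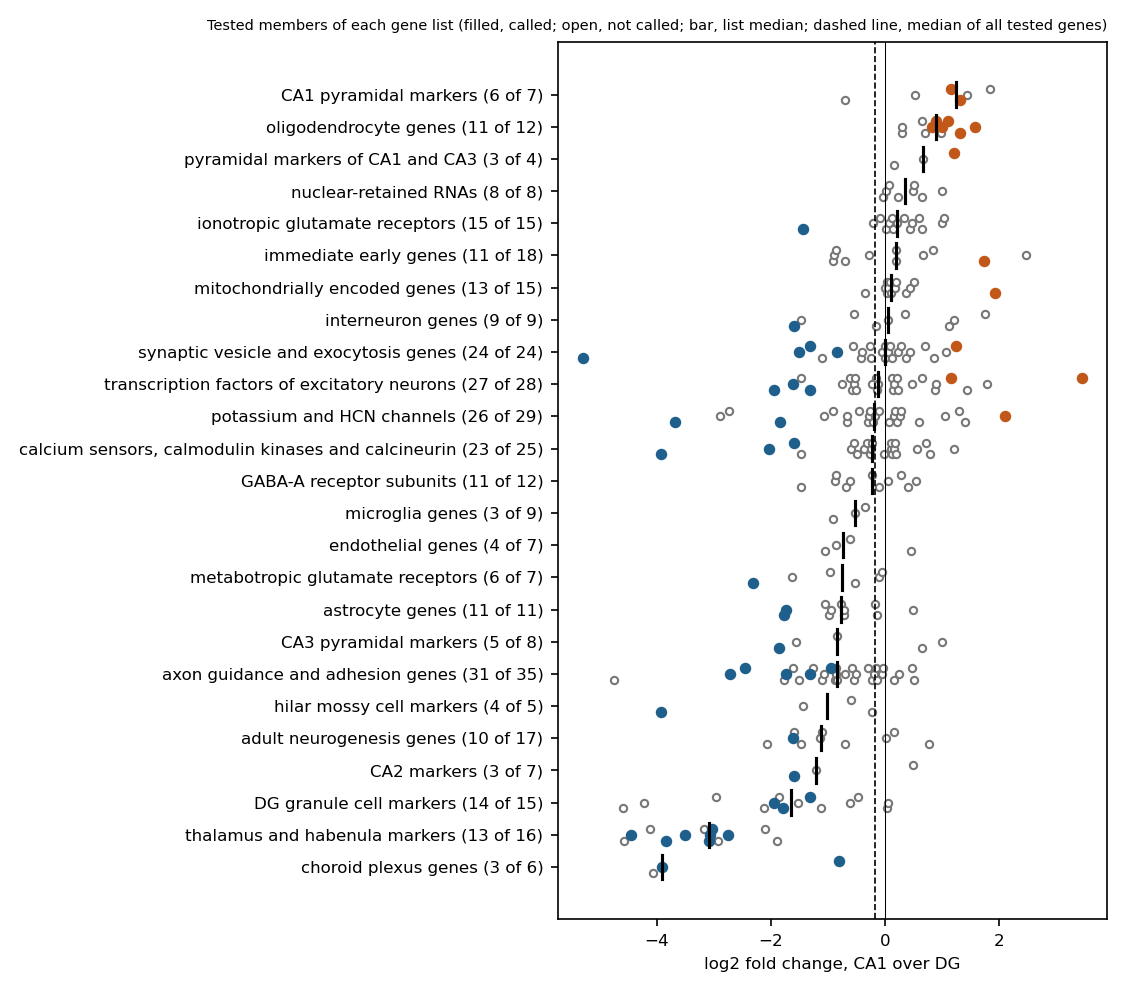
Log2 fold change of CA1 over DG for each tested member of the gene lists with at least 3 tested members (filled, called; open, not called; bar, list median; dashed line, median of all tested genes at -0.18). The CA1 pyramidal and oligodendrocyte medians lie highest, at 1.23 and 0.89, and those of granule cells, thalamus and habenula, and choroid plexus lowest, at -1.66, -3.08 and -3.91. The choroid plexus median is the value of Ttr among 3 tested genes, and is -2.35 without the member that has no UMI in CA1.

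Markers of structures outside the hippocampus were also higher in DG. The thalamus and the habenula lie beneath the dorsal hippocampus, and a set of transcription factors marks their neurons. Of 16 markers 13 were tested, 7 were higher in DG (2.42% of all tested genes were), none was higher in CA1, and all 13 values were negative with a median of -3.08. The summed level was 162 to 250 CPM in CA1 and 1292 to 2632 CPM in DG, and 4 of the 16 members (Ramp3, Tac2, Gpr151 and Chrnb4) had no UMI in CA1. Tcf7l2, a Wnt effector expressed across the thalamus and habenula, measured 64, 18, 14.1 and 27.8 CPM in CA1 and 393, 605, 332 and 342 CPM in DG. The DG replicates were all more than 5 times the highest CA1 replicate (-3.83 ± 0.43, edgeR adjusted p = 7.73e-16). Zic1, a zinc finger factor, had 0, 0, 1 and 2 UMIs in CA1 and 66, 53, 54 and 8 in DG (-4.45 ± 0.52, adjusted p = 6.71e-15). Its neighbour Zic4 overlaps it on chromosome 9 on the opposite strand and followed at -3.51 ± 0.71. The counting command in the study's protocol sets no strand option, so that reads from the stretch they share cannot be told apart by strand. Slc17a6, the vesicular glutamate transporter VGLUT2 of thalamic and habenular neurons, was at 28.1 ± 40 CPM in CA1 and 227 ± 20 CPM in DG (-2.75 ± 0.47, adjusted p = 1.32e-06).

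Nwd2, Amotl1 and Lef1 completed the called members. Nwd2, a gene of the habenula, measured 42.7, 54, 14.1 and 83.5 CPM in CA1 and 495, 667, 121 and 171 CPM in DG (-3.08 ± 0.41, edgeR adjusted p = 2.2e-11). DG replicates 1 and 2 were the highest for this gene, for Zic1 and for Zic4. Amotl1, an angiomotin-like junction protein, was at -3.03 ± 0.64, and Lef1, a partner of beta-catenin, at -3.06 ± 0.77 (adjusted p = 0.0626 without CA1 replicate 3). Of the 7 calls, 4 were also made with DESeq2 and 5 with DG thinned to CA1, and between 6 and 9 members were called when 1 replicate was left out. Lhx9 and Pou4f1, homeodomain factors of these nuclei named after their values were seen, had 1 UMI each in CA1 and 53 and 36 in DG (-4.07 ± 0.85 and -3.53 ± 0.94). The call of Pou4f1, at 108, 124, 26.9 and 0 CPM in the DG replicates, was lost without CA1 replicate 2 or 3 or DG replicate 1 or 2 (0.0597 to 0.114). The granule cell gene Prox1 is also active in parts of the thalamus, and the part of these cells in its DG level was not tested.

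A single DG replicate carried the genes of the choroid plexus, the tissue that makes cerebrospinal fluid. Ttr, which encodes the thyroid hormone carrier transthyretin and is its most abundant product, was at 427, 0, 0 and 334 CPM in CA1 and at 8888, 53.3, 31.4 and 218 CPM in DG. Replicate 1 of DG held 1311 of the 1338 UMIs of DG, and the other 3 DG replicates lay within the range of CA1. The fit gave -3.91 (edgeR adjusted p = 2.73e-33), which turned to 1.14 without DG replicate 1 (adjusted p = 0.14). Across the 8 replicates the exact permutation test gave p = 0.743. Enpp2, the lysophospholipase autotaxin, which is made by the choroid plexus and by oligodendrocytes, had the same pattern. It measured 1024, 1170, 763 and 696 CPM in CA1 and 4339, 809, 529 and 327 CPM in DG, with a log2 fold change of -0.80 (adjusted p = 0.0363) that became 0.72 without DG replicate 1 (0.0755). The call of Enpp2 was also lost without CA1 replicate 1, 3 or 4 (0.0602, 0.191 and 0.263). DESeq2 gave neither gene an adjusted p, so that its result says nothing for or against a difference. The remaining members were at low counts, with 1 and 7 UMIs of Kl and 0 and 11 of Clic6 in CA1 and DG and none of Folr1 or Kcnj13.

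Genes of oligodendrocytes, the cells that make myelin, were higher in CA1. Of 12 members 11 were tested, all 11 values were positive, 6 were called higher in CA1 (0.87% of all tested genes were) and none higher in DG, and the median was 0.89. With DESeq2 4 of the 11 were called, and Mbp (adjusted p = 0.158), Mobp (0.319) and Ermn (0.126) were not. The summed level was 15765 to 26210 CPM in CA1 and 6504 to 19253 CPM in DG, which overlap. Cldn11, the tight junction protein of myelin, measured 2945, 2376, 1568 and 1753 CPM in CA1 and 1525, 925, 829 and 560 CPM in DG. The regions were separate by a small margin (1.11 ± 0.24, edgeR adjusted p = 0.000479). Mal, a proteolipid of compact myelin, was at 905 ± 280 CPM in CA1 and 342 ± 213 CPM in DG (1.30 ± 0.25, adjusted p = 2.67e-05). Mbp, the myelin basic protein, measured 6382, 4428, 5001 and 3256 CPM in CA1 and 3735, 2570, 1869 and 1043 CPM in DG. The highest DG replicate exceeded the lowest CA1 replicate for this gene (1.00 ± 0.25, adjusted p = 0.00411, and 0.126 without DG replicate 4). Mobp (0.89 ± 0.24) and Ermn (0.83 ± 0.26), a myelin basic protein of oligodendrocytes and an actin-binding protein of their processes, overlapped between regions too. Mobp was lost without CA1 replicate 1 or DG replicate 2, 3 or 4 (up to 0.278), and Ermn without CA1 replicate 2 or 4 or DG replicate 2, 3 or 4 (up to 0.292). Trf, the iron carrier transferrin, was at 299, 324, 240 and 306 CPM in CA1 and 129, 88.9, 76.2 and 77.8 CPM in DG (1.57 ± 0.33, adjusted p = 0.000267), but 73.5% of the 31-base words in its 3' end also occur in another annotated gene. With DG replicate 4 left out, 3 of the 11 were called.

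Of 11 tested astrocyte genes 2 were higher in DG, beside 2.42% of all tested genes, and none in CA1. Gja1, the gap junction protein connexin 43, measured 85.4, 72, 70.6 and 27.8 CPM in CA1 and 203, 187, 247 and 280 CPM in DG (-1.78 ± 0.40, edgeR adjusted p = 0.000924). Slc6a11, the GABA transporter GAT-3, was at 71.6 ± 15.1 CPM in CA1 and 229 ± 61 CPM in DG (-1.73 ± 0.39, adjusted p = 0.000982). Both were called in all 8 fits without 1 replicate and with DESeq2. The list median was -0.77. Gfap (-0.77), Aqp4 (-1.04) and Slc1a2 (-0.17), a filament protein, a water channel and a glutamate transporter, did not pass the test. The summed level of the 11 genes was 2340 to 3192 CPM in CA1 and 3118 to 4310 CPM in DG.

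Interneuron genes were split. Gad1, 1 of the glutamate decarboxylases that make GABA, measured 0, 180, 127 and 195 CPM in CA1 and 197, 516, 426 and 327 CPM in DG (-1.59 ± 0.32, edgeR adjusted p = 0.000117). It was the only member called of 9, beside 2.42% of all tested genes higher in DG, and the median of the list was 0.04. Gad2, the other decarboxylase, was at -0.54, and the peptide gene Sst at 0.35 with 86 UMIs in CA1 and 167 in DG. None of 3 tested microglia genes, 4 endothelial genes, 1 oligodendrocyte precursor gene (Pdgfra, with 1 UMI in CA1 and 21 in DG) and 1 erythrocyte gene was called by edgeR or DESeq2. At an unadjusted p under 0.05 these were 0, 1, 1 and 1 genes. The summed level of the microglia genes was 83.5 to 113 CPM in CA1 and 80 to 265 CPM in DG.

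Beyond the markers, several neuronal genes were higher in CA1. Meis2, a TALE-class homeodomain factor, had 8, 7, 4 and 1 UMIs in CA1 and 1, 0, 1 and 2 in DG, and the lowest CA1 replicate, at 27.8 CPM, lay below the highest DG replicate at 31.1 CPM (3.45 ± 0.71, edgeR adjusted p = 0.000206). Egr1, an immediate early transcription factor that neuronal activity induces, measured 64, 108, 155 and 111 CPM in CA1 and 6.78, 26.7, 49.3 and 46.7 CPM in DG. It was the only immediate early gene called of 11 tested (1.73 ± 0.51, adjusted p = 0.0269), beside 0.87% of all tested genes higher in CA1. The median of that list was 0.18. The call of Egr1 was lost without CA1 replicate 2 or 3 or DG replicate 1 or 2 (up to 0.199). Kcnq5, a subunit of the M-type potassium channel, was at 117 ± 54.1 CPM in CA1 and 20.8 ± 15.5 CPM in DG (2.09 ± 0.53, adjusted p = 0.00633). Sv2b, a synaptic vesicle glycoprotein, reached 1.24 ± 0.36 (adjusted p = 0.0225, and up to 0.168 without CA1 replicate 3 or 4 or DG replicate 3 or 4).

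The reticulon Rtn4, which encodes the myelin-associated inhibitor Nogo and is also expressed by neurons, was among the most counted genes on the CA1 side. It measured 2284, 2502, 2133 and 3228 CPM in CA1 and 1485, 1503, 1175 and 1369 CPM in DG. The ranges were well apart, yet the edgeR adjusted p was 0.0254 for a log2 fold change of 0.82 ± 0.24. This call was lost without CA1 replicate 2 or 4 or DG replicate 2, 3 or 4 (0.0676 to 0.0994). Prkcb, a protein kinase C isoform named after its values were seen, showed 2305, 2160, 2981 and 3173 CPM in CA1 and 942, 1396, 1403 and 1027 CPM in DG (1.10 ± 0.24, adjusted p = 0.000644). Vxn, the neurogenesis factor vexin, also named afterwards, was at 260 ± 66.7 CPM in CA1 and 64.9 ± 31.6 CPM in DG (1.78 ± 0.35, adjusted p = 7.39e-05). For Prkcb and Vxn every one of 10 thinnings of DG and DESeq2 made the same call. Ctps, a synthase of CTP, was named for its fold change, at 133 ± 68.4 CPM in CA1 and 12.4 ± 14.4 CPM in DG (2.78 ± 0.57, adjusted p = 0.000208).

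Synaptic vesicle genes had 4 members higher in DG and 1, Sv2b, higher in CA1 of 24 tested, beside 2.42% and 0.87% of all tested genes, with a median of 0.00. Cplx2, a complexin that regulates vesicle fusion, measured 406, 432, 424 and 334 CPM in CA1 and 1003, 1085, 1027 and 1400 CPM in DG. Its replicates were tightly grouped in CA1 and separate from DG (-1.50 ± 0.26, edgeR adjusted p = 2.19e-06). Rph3a, the Rab3 effector rabphilin, was at 266 ± 79.8 CPM in CA1 and 677 ± 251 CPM in DG (-1.31 ± 0.27, adjusted p = 0.000243). Nsf, the ATPase that takes SNARE complexes apart, reached -0.84 ± 0.25 (adjusted p = 0.0355) and was lost without CA1 replicate 1 or 4 or DG replicate 2, 3 or 4 (0.106 to 0.237). Syt9, a synaptotagmin, had 0 UMIs in CA1 and 61, 97.8, 31.4 and 0 CPM in DG (adjusted p = 0.0103, and 0.0523 and 0.0858 without CA1 replicate 3 or DG replicate 2). Most of the common vesicle genes were not called, among them Snap25 (-0.40), Syt1 (-0.06) and Vamp2 (0.12).

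Calcium-binding proteins had 3 of 23 tested members higher in DG, which were Calb2, Pcp4 and Calb1, and none higher in CA1, where 2.42% and 0.87% of all tested genes were. Calb1, the calbindin of granule cells and of superficial CA1 pyramidal cells, had 21.3, 18, 56.5 and 27.8 CPM in CA1 and 102, 124, 157 and 171 CPM in DG (-2.03 ± 0.52, edgeR adjusted p = 0.00633, and 0.0513 without CA1 replicate 2). This call was lost with DESeq2 (adjusted p = 0.0912) and was made in 5 of 10 thinnings of DG. The calmodulin kinase Camk2a was at -0.37 and the calcineurin subunit Ppp3ca at 0.18, with no call. The list median of -0.23 was close to the -0.18 of all tested genes.

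The listed ion channels and transmitter receptors gave few calls. Of 26 tested potassium and HCN channel genes of the list Kcnq5 was higher in CA1, Kcnd3 and Kcnj3 were higher in DG, and the median was -0.19. Over all tested genes the shares were 0.87% and 2.42%. The list does not hold every such gene. Kcnn3, given below for its fold change toward DG, lies outside it, and calls of other channel genes outside it were not counted here. Kcnd3, an A-type channel, had a single UMI in CA1 and 33.9, 80, 71.7 and 156 CPM in DG (-3.68 ± 0.92, edgeR adjusted p = 0.00483). Kcnj3, a G protein-gated channel, was at 43.1 ± 28.8 CPM in CA1 and 144 ± 45.7 CPM in DG (-1.84 ± 0.50, adjusted p = 0.0129, and 0.0557 to 0.0905 without CA1 replicate 2 or 3 or DG replicate 3 or 4). Of 15 ionotropic glutamate receptor genes, the kainate receptor subunit Grik2 alone was called (-1.44 ± 0.44, adjusted p = 0.0402). This call was lost in 6 of 8 fits without 1 replicate, all except those without CA1 replicate 3 or DG replicate 1 (up to 0.274). None of 11 tested GABA-A receptor subunits was called by edgeR or DESeq2, and 4 were at an unadjusted p under 0.05. Gria1 (-0.21), Gria2 (0.11) and Grin2a (0.21) illustrate the values of the subunits that were counted well.

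The axon guidance and adhesion genes that passed the test were higher in DG, but few of these calls held under other settings. Of 31 tested, 5 were higher in DG (2.42% of all tested genes were) and none in CA1, and the median was -0.84. Their summed level was 3991 to 5435 CPM in CA1 and 5654 to 7442 CPM in DG, without overlap. Sema5a, a transmembrane semaphorin, measured 128, 90, 127 and 111 CPM in CA1 and 271, 329, 444 and 467 CPM in DG (-1.73 ± 0.33, edgeR adjusted p = 2.47e-05). Each DG replicate was at more than 2 times the highest CA1 replicate. Ntng1, a netrin-G ligand anchored in the axon membrane, had 4 UMIs in CA1 and 59 in DG (-2.45 ± 0.63, adjusted p = 0.00643), and the repellent Slit2 had 3 and 52 (-2.71 ± 0.68, adjusted p = 0.00571, and 0.0534 without CA1 replicate 2). The calls of Plxna4, a semaphorin receptor (-0.94), and Pcdh20, a protocadherin (-1.31), were lost when any of 7 and of 6 replicates was left out, the exceptions being DG replicate 1 for Plxna4 and CA1 replicate 3 and DG replicate 1 for Pcdh20 (up to 0.179 and 0.244). Slit2, Ntng1 and Sema5a are also expressed by neurons outside the granule layer, and the thalamus and habenula markers given above moved in the same direction. Their part in these values was not tested. With DESeq2 1 of the 31 genes was called, and with DG thinned to CA1 2 were.

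Transcription factors of excitatory neurons had 2 calls toward CA1 (Pou3f1 and Meis2) and 3 toward DG (Prox1, Neurod1 and Rfx3) among 27 tested. Of all tested genes 0.87% and 2.42% were called in these directions, and the list median was -0.12. Zbtb20, a factor of hippocampal identity present in both regions, was at -0.76 (edgeR adjusted p = 0.053). Among 8 nuclear-retained RNAs, which include Malat1 (0.07) and Meg3 (0.22), no gene was called by edgeR or DESeq2, 1 was at an unadjusted p under 0.05, and the median was 0.35.

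The largest fold changes toward DG were of genes without a UMI in CA1. Of the 10 genes with the largest fold change and no overlap, all had 0 UMIs in the 4 CA1 replicates, where a count of 0 allows up to 3. DG was the more deeply counted region, and 118 tested genes had no UMI in CA1 whereas 2 had none in DG, so that nothing is read from the direction of this ranking. Against this limit over the group, Arf6, a small GTPase of membrane traffic, was at least 4.97-fold higher in DG, with 74.6, 97.8, 62.8 and 46.7 CPM. For the others the bound lay between 2.93-fold (Cpsf4, an mRNA cleavage factor) and 4.71-fold (Tpd52l1, a tumor protein D52 relative). Lgr6, an R-spondin receptor, had a bound of 3.82-fold, and Smoc2, a matricellular protein, of 3.57-fold. The astrocyte enzyme gene Etnppl stood at 3.18, the potassium channel gene Kcnn3 at 3.06, the long noncoding RNA Rmst at 3.44, and Sec24d and Abhd3 at 3.82 and 3.18. Fitted values near -5 for these genes depend on the prior count and are no bound. DESeq2 gave none of the 10 an adjusted p. Of 10 thinnings of DG, 8 made the call for Tpd52l1, 7 for Sec24d, 6 for Arf6 and 4 for Lgr6, and 1 to 5 for each of the others. Among these 10, the calls of Smoc2, Rmst, Etnppl, Abhd3, Kcnn3 and Cpsf4 were each lost without CA1 replicate 3 (0.0508 to 0.0959). Some were also lost without another replicate, Smoc2 without DG replicate 3, Rmst without DG replicate 2, and Etnppl and Abhd3 without CA1 replicate 2. Kcnn3 and Cpsf4 were called in 2 and 3 of the 8 fits without 1 replicate, and lost without CA1 replicate 1, 2 or 4 and, for Kcnn3, DG replicate 3 or 4 and, for Cpsf4, DG replicate 1.

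Many of the largest differences toward CA1 were in gene models with near copies elsewhere in the genome. Of the 78 genes higher in CA1, 16 (20.5%) share at least 50% of the 31-base words of their 3' end with another annotated gene, against 9 of the 217 higher in DG (4.15%) and 228 of 8963 tested genes (2.54%). Without these genes the calls were 62 and 208. Counts of such genes are uncertain, since a read that fits several copies can be given to either or to none. Gm12346, a processed pseudogene of Hsp90aa1 on chromosome 11 (77293444 to 77295898), had 71, 58, 30 and 30 UMIs in CA1 and none in DG, at least 165-fold higher against the limit of 3 counts over the group. Hsp90aa1 itself, a heat shock chaperone, was at 1654 ± 320 CPM in CA1 and 1893 ± 370 CPM in DG. Their sum was 2608 ± 283 CPM in CA1 and 1893 ± 370 CPM in DG (two-sided exact permutation test, p = 0.0571).

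Nuclear copies of mitochondrial genes split in both directions. Gm28437, for which 100% of the words of the 3' end also occur in mt-Co3, measured 5976, 4932, 5919 and 4453 CPM in CA1 and 583, 338, 336 and 560 CPM in DG (3.53 ± 0.27, edgeR adjusted p = 3.04e-35). The mitochondrial gene mt-Co3 was also higher in CA1 (1.92 ± 0.35), and the sum of both was 5574 ± 828 CPM in CA1 and 518 ± 156 CPM in DG (exact permutation test, p = 0.0286, the smallest that 4 against 4 allow). Gm28437, chosen among genes whose replicates did not overlap, held 1133 of the 1189 UMIs of this sum in CA1. The p of the sum is therefore no separate support. In contrast, Gm29216, a copy of mt-Co1, was at 265 ± 127 CPM in CA1 and 1279 ± 288 CPM in DG (-2.23 ± 0.27), and its sum with mt-Co1 at 973 ± 298 and 1979 ± 324 CPM. Gm13339 (-0.96 ± 0.25), a further unprocessed pseudogene, lost its call without CA1 replicate 4 (0.181). In fixed frozen, fresh-frozen TE and fresh-frozen HCl sections Gm28437 was at -2.65, 0.22 and 6.83. Gm29216 was at -2.29, 5.76 and 7.12 there, and Gm13339 at -0.48, 0.67 and 3.57. The sign of each of these copies thus differed between conditions, and the cause was not tested. Of 13 tested mitochondrially encoded genes mt-Co3 was the only one called, beside 0.87% of all tested genes higher in CA1. The genes mt-Nd1 (0.37), mt-Cytb (0.08) and mt-Rnr2 (0.51) were not called.

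A cluster at the start of chromosome 9 was higher in CA1. Gm10717, Gm10719, Gm10720, Gm10722 and Gm11168 lie between positions 3000922 and 3033289, share words with each other, and had log2 fold changes of 2.93, 2.96, 3.12, 2.55 and 3.73. Gm10717, the most counted of them, measured 1515, 1062, 339 and 918 CPM in CA1 and 169, 142, 62.8 and 124 CPM in DG. Its values in fixed frozen, fresh-frozen TE and fresh-frozen HCl sections were -1.19, 1.35 and 3.83. All of the cluster lies within a long noncoding RNA of the opposite strand, ENSMUSG00000097312 (3.73 ± 0.30). Gm10800 and ENSMUSG00000095280, on chromosomes 2 and 14, were the most counted genes higher in CA1. For ENSMUSG00000095280 the values were 10309, 8081, 3630 and 7208 CPM in CA1 and 1607, 1423, 569 and 1074 CPM in DG (2.61 ± 0.26), and Gm10800 followed at 2.12 ± 0.26. Both were called under all 19 alternatives and omissions, which reuse the same counts and do not address reads that fit several copies. Of the words of their 3' ends, 37.9% for ENSMUSG00000095280 and 44.1% for Gm10800 also occur in other genes. In fixed frozen, fresh-frozen TE and fresh-frozen HCl sections they were at 0.35, 1.13 and 3.35 and at 0.37, 1.12 and 3.21. Neither was called in fixed frozen sections. Sumo2, a ubiquitin-like modifier, was at 187 ± 117 CPM in CA1 with 2 UMIs in DG (5.13 ± 0.66, edgeR adjusted p = 3.62e-12), and the processed pseudogene Gm12034 at 3.84 ± 0.46.

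The tubulin gene Tuba1b gave the opposite extreme among genes with relatives, and was named after its values were seen. It measured 21.3, 36, 70.6 and 0 CPM in CA1 and 800, 960, 713 and 809 CPM in DG (-4.43 ± 0.39, edgeR adjusted p = 4.4e-27). Its close relative Tuba1a differed little (-0.42, adjusted p = 0.666), so that the sum of Tuba1a, Tuba1b and Tuba1c kept the direction at 146 ± 83.3 CPM in CA1 and 969 ± 112 CPM in DG (exact permutation test, p = 0.0286). Tuba1b itself held 437 of the 531 UMIs of this sum in DG, so that the p of the sum is no separate support. In the other conditions Tuba1b was at -0.15 in fixed frozen, 0.31 in fresh-frozen TE and -0.04 in fresh-frozen HCl sections. The CA3 replicates of paraffin sections held 837 ± 103 CPM, near the level of DG. The part that assignment to copies or the CA1 library had in this value was not tested.

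The called genes were then read in the other 3 conditions, which come from other libraries. Of the 295, 279 could be tested in fixed frozen sections and 236 (84.6%) had the same sign there, while 229 of 292 (78.4%) did in fresh-frozen TE and 234 of 292 (80.1%) in fresh-frozen HCl sections. Over all genes tested in both, the same sign was found for 60.3%, 59.4% and 59.3%. In these conditions 8.14%, 10.1% and 17.0% of the tested genes were called between CA1 and DG, and of the 295 there were 126, 130 and 162 that were called with the same sign. In all 4 conditions 91 were called, 88 of them always in the same direction (20 toward CA1, 68 toward DG). A further 76 of the 279 genes tested in every condition were called in paraffin sections only, 15 toward CA1 and 61 toward DG.

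The fold changes of the marker genes in the other conditions were set beside those in paraffin. Prox1 was at -1.94 in paraffin and at -3.68, -2.96 and -3.16 in fixed frozen, fresh-frozen TE and fresh-frozen HCl sections. Wfs1 was at 0.53 and was called in the others at 2.29, 2.93 and 2.0, with 890 UMIs in CA1 and 92 in DG of fresh-frozen TE sections. Dkk3 had 1.21 beside 1.77, 1.42 and 1.09. Tcf7l2 was lower in CA1 in every condition, with -3.83 in paraffin and -3.08, -2.20 and -1.62 elsewhere, and its difference from fixed frozen (-0.79, edgeR adjusted p = 0.819) and fresh-frozen TE sections (-1.79, 0.108) did not pass the test.

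**Figure D5:**
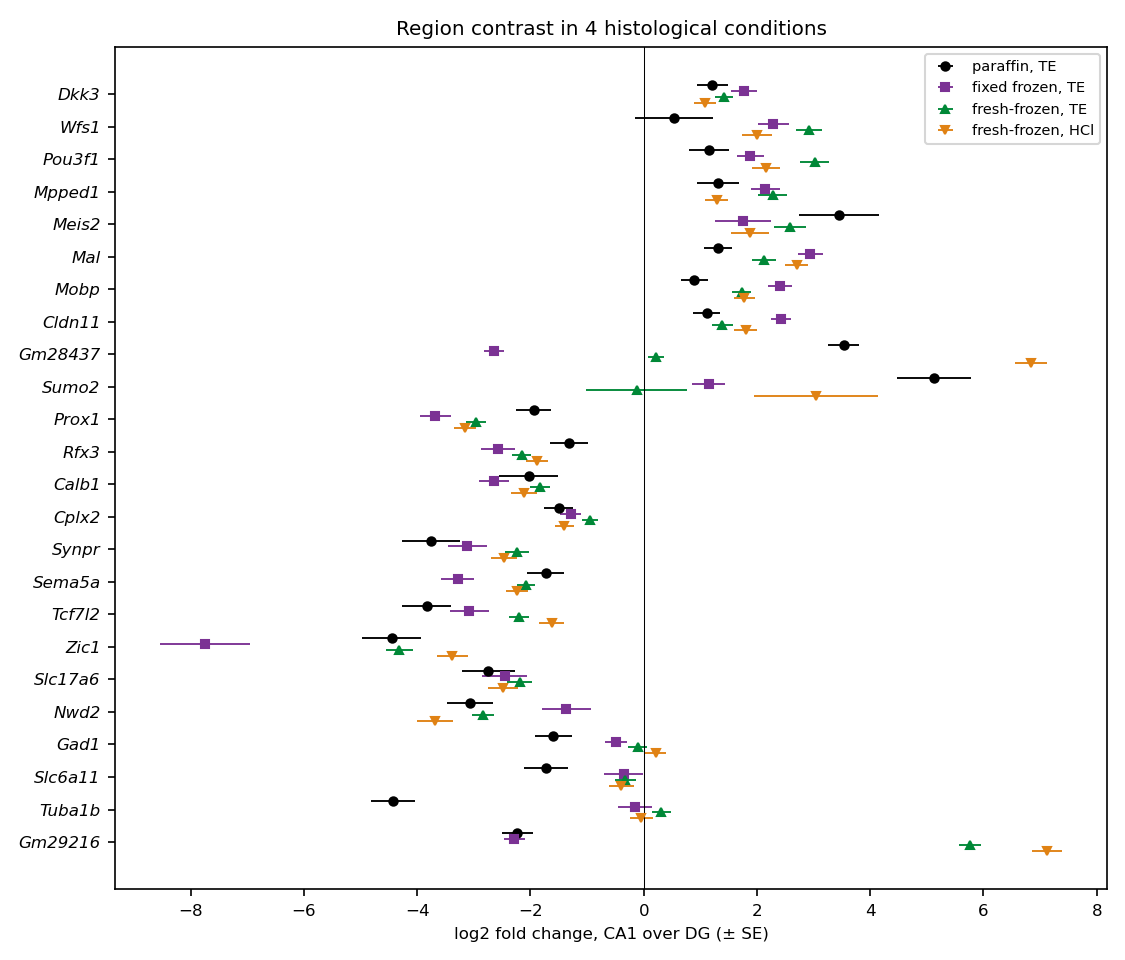
Log2 fold change of CA1 over DG with its SE for selected genes in paraffin, fixed frozen, fresh-frozen TE and fresh-frozen HCl sections. Prox1 lies below 0 and Dkk3 above 0 in all 4 conditions, while Wfs1 is near 0 in paraffin only and Tuba1b far below 0 in paraffin only.

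The difference of the contrast itself was tested against fixed frozen and fresh-frozen TE sections. Against fixed frozen sections 81 of 11250 genes (0.72%) differed, 40 with more of the contrast toward CA1 in paraffin and 41 toward DG. Against fresh-frozen TE sections 139 of 14672 (0.947%) did, 22 and 117, with a median of -0.35 over all genes tested. Both sets hold genes with near copies, 13 of 81 and 15 of 139, beside 2.54% of the genes tested between the regions of paraffin sections. Myelin genes were among the named genes whose contrast was smaller in paraffin than in fixed frozen sections, by -1.65 for Mal, -1.53 for Mobp and -1.33 for Cldn11 (edgeR adjusted p = 0.000434, 0.000487 and 0.00199). Against fresh-frozen TE sections the values were -0.96, -0.97 and -0.42, and only that of Mobp passed (0.0816, 0.0405 and 0.617). Against fresh-frozen TE sections Wfs1 differed by -2.52 (adjusted p = 0.0208), Pou3f1 by -1.97 (0.000993) and Gad1 by -1.62 (0.00525). Against fixed frozen sections none of the 3 passed, at -1.78 (edgeR adjusted p = 0.362), -0.73 (0.678) and -1.12 (0.232). For Dkk3 and Prox1 no difference from fixed frozen (adjusted p = 0.699 and 0.0536) or fresh-frozen TE sections (0.768 and 0.364) passed the test. After all replicates had been thinned to the smallest total, 27 and 6 genes differed, and leaving out single replicates moved the count against TE sections to 77 without CA1 replicate 1, 92 without CA1 replicate 4, 88 without DG replicate 2 and 55 without DG replicate 3.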

How the data were processed

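The values deposited by the authors are raw UMI counts of 32546 genes in 48 replicate columns. Per the labels and the study's methods, UMIs of 6 bases were extracted with UMI-tools 1.0.0, reads trimmed with Trim Galore!, aligned to GRCm38 with HISAT2 2.1.0, assigned with featureCounts 1.6.4 and counted as different UMIs per gene and barcode. The counting command in the study's protocol sets no strand option, which in featureCounts means counting without regard to strand. The annotation release is not given in the sources used here. Positions come from GENCODE M21. The count table was used for the 8 columns of both regions, for CA3 of paraffin sections and for CA1 and DG of the other conditions, and 12 of the 48 columns (CA3 of the other conditions) were not used. A deposited table of barcodes was not used.

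Genes with at least 10 UMIs over the 8 columns were tested with the quasi-likelihood test of edgeR 4.0.16 (R 4.3.3) with TMM normalization and Benjamini-Hochberg adjustment, and called at an adjusted p under 0.05. The same fit was run in each other condition, and an interaction term compared conditions. DESeq2 1.42.0, which the authors used in version 1.20.0, other scalings, filters, thinning, the replicate number as a block and the omission of each replicate were alternatives. The 10 draws of thinning and the count without genes of shared 3' ends (500 bases, words of 31 bases) were chosen after seeing the data. The test was also run on simulated counts, whose spread followed the trend over genes of like level. Changes were put only into genes of at least 100 UMIs. The simulation therefore covers neither genes whose own replicates scatter widely nor genes under 100 UMIs. The latter gave 47 of the calls toward CA1 and 108 of those toward DG. The 27 gene lists held 345 genes. Genes in the text are those the study names, the 10 largest separate changes and the 5 most counted called genes in each direction, and called list members. The members and lists were chosen with earlier results of these data known. Some genes are not reported here. The description of the series names CA2 where the titles name CA3. Depths are given with the results. Limits from a count of 0 cover counting error only, whereas the SD shows the spread between the replicates. The SE was taken from the fold change and the edgeR test statistic, whose spread is estimated over many genes together. It was 0.243 for Enpp2, with widely scattered DG replicates, and 0.239 for Rtn4, with even ones.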

Additional observations from a re-analysis of the deposited data

Results flagged for a closer look

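In 7 of 152 sets of 4 replicates checked, a single replicate stood apart from the other 3. The gap required was of a size that chance gives in about 1 of 20 sets. This rate holds for independent, normally spread values, whereas some sets rest on 1 or 2 UMIs and genes share replicates. No verdict on chance is drawn from their number. In DG replicate 1, Ttr was at 8888 CPM with the next replicate at 218, Enpp2 at 4339 with the next at 809, Cpsf4 at 61.0 with the next at 35.9, and Plxna4 low at 264 with the next at 436. In CA1, Calb2 had 27.8 CPM in replicate 4, Lef1 42.7 CPM in replicate 1 and Kcnd3 14.1 CPM in replicate 3, each with 0 in the other 3 replicates and resting on 1 or 2 UMIs.

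The contrast of CA1 over DG differed between paraffin and another condition for 26 combinations of a named gene and a condition, by the interaction term of edgeR. Against fixed frozen sections it was larger toward CA1 in paraffin by 7.93 for Gm12346, 6.16 for Gm28437, 4.63 for Gm12034, 4.07 for Gm10717, 4.04 for Sumo2, 2.23 for ENSMUSG00000095280 and 1.73 for Gm10800, on the log2 scale. It was shifted toward DG by -6.96 for Cpsf4, -2.07 for Enpp2, -1.65 for Mal, -1.53 for Mobp and -1.33 for Cldn11. Against fresh-frozen TE sections the shift toward CA1 was 10.68 for Gm12346, 5.40 for Sumo2, 3.21 for Gm28437, 3.14 for Gm10722, 2.45 for Ctps and 1.36 for ENSMUSG00000095280. The shift toward DG was -8.09 for Gm29216, -7.26 for Arf6, -2.52 for Wfs1, -1.97 for Pou3f1, -1.74 for Gm13339, -1.62 for Gad1, -1.28 for Ermn and -0.97 for Mobp, beside a median of -0.35 over all genes. Values of Gm12346, Arf6 and Cpsf4 involve a region without any UMI and are no bounds. Of the 26, the largest adjusted p was 0.0446, for Cpsf4.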

How the results depend on the processing

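Against 295 genes called, 78 higher in CA1 and 217 higher in DG, DESeq2 called 101 (45 higher in DG), filterByExpr 142 (72), thinning to the smallest total 122 (64), thinning of DG to CA1 174 (102) and thinning with the replicate block 132 (68). Without a filter 46 were higher in CA1. Leaving out 1 replicate gave 195 to 272 calls, 56 to 98 higher in CA1 and 136 to 174 higher in DG. The contrast against fixed frozen sections (81 genes) gave 27 after thinning and 73 to 94 without 1 replicate. The contrast against fresh-frozen TE sections (139 genes) gave 61 with DESeq2, 59 with its size factors, 54 with filterByExpr, 74 without a filter, 6 after thinning, 271 with the replicate block and 55 to 148 without 1 replicate. The cause was not tested, apart from the smaller number of UMIs after thinning. The ratio of totals was 2.07 to 3.08 without 1 replicate, and detected genes had a ratio of 1.29 without thinning. Of genes called after thinning DG, 83.8% had the same sign in fresh-frozen TE sections.

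Same-numbered replicates of CA1 and DG correlated at 0.219, 0.111, 0.286 and 0.0725 over 2161 genes, and each replicate correlated best with its own number, a hint from the data and not the design. The numbers were therefore not taken to pair the samples. These correlations are not to be read as those of the expression levels, which between replicates of the same region were 0.759 to 0.874 in log2 CPM. With the replicate number as a block 366 genes were called, and of the named genes in the text Enpp2 lost its call (-0.27, edgeR adjusted p = 0.548). Over 74 named genes, 1078 of 1318 values under the alternatives kept direction and call, 235 lost the call and 5 reversed. These were Wfs1 at -0.076 after thinning, -0.13 after thinning with the block and -0.31 without CA1 replicate 4 (range -0.31 to 0.97 without 1 replicate), and Ttr at 1.14 (range -4.97 to 1.14) and Enpp2 at 0.72 (range -1.06 to 0.72) without DG replicate 1. Of 72 named called genes, 40 kept the call without any 1 replicate. In CA1, 1 UMI is 14.1 CPM or more, which limits every gene of low level there.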

Other observations

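Several well counted genes higher in DG belonged to none of the lists and were chosen after their values were seen. Synpr, a synaptic vesicle membrane protein of mossy fibres, measured 0, 36, 14.1 and 27.8 CPM in CA1 and 251, 373, 152 and 358 CPM in DG (-3.75 ± 0.51, edgeR adjusted p = 1.3e-10). Nrn1, a membrane-anchored protein that promotes neurite growth, was at 11.6 ± 14 CPM in CA1 and 215 ± 87.5 CPM in DG (-3.72 ± 0.58), and Vav3 at 25.4 ± 39.7 and 173 ± 58.6 CPM (-3.13 ± 0.56). Dgkh, a diacylglycerol kinase, was at 202 ± 57.1 and 648 ± 126 CPM (-1.66 ± 0.28), Fam163b at 75 ± 59.2 and 352 ± 121 CPM (-2.08 ± 0.36), and Sparc, a matricellular protein of astrocytes and vessels, at 214 ± 37.6 and 714 ± 72.8 CPM (-1.75 ± 0.28). Each of these 6 was called with DESeq2 and in all 10 thinnings of DG.

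Nap1l5 and Chchd2, also chosen after their values were seen, were higher in DG in paraffin sections and near 0 in the other conditions. Nap1l5, a nucleosome assembly protein gene, measured 256, 468, 311 and 306 CPM in CA1 and 834, 1005, 780 and 794 CPM in DG (-1.37 ± 0.26, edgeR adjusted p = 4.35e-05), beside -0.01, 0.28 and 0.16 in fixed frozen, fresh-frozen TE and fresh-frozen HCl sections. Its level in CA3 of paraffin sections was 229 ± 58 CPM. For Chchd2, which encodes a mitochondrial protein, the values were -1.43 ± 0.27 in paraffin and -0.14, 0.02 and -0.27 in the others, and 51.4% of the 31-base words in its 3' end also occur in another annotated gene. Hmgn2 and its copy Gm10282 moved in opposite directions (4.01 ± 0.84 and -2.48 ± 0.52), and their sum was at 116 ± 55.1 CPM in CA1 and 173 ± 52.1 CPM in DG (two-sided exact permutation test, p = 0.2).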
